A study of Homo sapiens with 38 samples.

Results

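The genes described here are 146 of the 11893 genes with a single symbol on the arrays. What they share is a fall from 0 h that was under a set limit 2 h after interleukin 1 beta (IL1B) and larger at 8 h and 10 h. Small falls at 2 h were allowed, and the median difference at that hour was -0.15. For PKP2, the control arrays read 8.49 to 8.59 at 2 h and 8.74 to 8.88 at 0 h. They were chosen from the control cells alone. For each gene the probe set with the highest mean over all arrays was taken, and the difference between group means on the log2 scale had to lie above -0.3 at 2 h, with no upper limit, and at or under -0.7 at both 8 h and 10 h. A log2 difference of -1 is a halved level. In all, 152 genes passed, and 6 were set aside by name (CERS4 and the solute carriers SLC16A14, SLC43A1, SLC4A4, SLC4A8 and SLC8A1). Of the 228 genes at or under -0.7 at both late hours in controls, 76 were already at or under -0.3 at 2 h and were not taken. By RefSeq, 143 of the 146 genes code for protein and 3 are long noncoding RNAs.

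The cells were A549, an established line from a human lung adenocarcinoma that keeps some traits of alveolar cells. Cells of the control arm and cells given a pool of siRNAs against ORMDL3, an endoplasmic reticulum protein that restrains sphingolipid synthesis, were left for 48 h, starved of serum for 24 h and then given IL1B at 1 ng/ml. The labels call the other arm control only, and its transfection is not given in sources used here. The arrays fell into 10 groups, control and ORMDL3 knockdown at 0, 2, 4, 8 and 10 h, most of them with 4 arrays; control 8 h and knockdown 0 h had 3 each. Every group shared the serum starvation, and only the 0 h groups had no IL1B. No later hour had arrays without IL1B, so the effect of IL1B and of the added hours in culture cannot be told apart. Nothing in the labels says that replicates came from separate cultures, so the p-values reflect the spread among these samples alone, which may be technical. In RNA from whole cultures, fewer cells of a type and less RNA per cell cannot be told apart.

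IL1B binds its receptor on epithelial cells and, through the adaptor MYD88 and the kinases IRAK4 and TAK1, activates NF-kB and MAP kinases. Transcripts of direct target genes rise quickly, while the levels of other transcripts fall at a pace set by how fast transcription stops and how long each RNA lasts. Lung epithelium is held together by cadherin junctions and desmosomes, and carries ion and water channels in its membrane.

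Starts of 106 of the 146 genes were matched by symbol in a RefSeq table of promoters (GRCh38.p14), with 156 promoters among them, and the 250 bases before each start were searched on both strands. Shown are the windows of NRG4, which had the lowest late level relative to 0 h in both arms, of PCDH9, which had the lowest 8 h change in the knockdown arm, and of NFATC2 at one of its starts, because NFATC2 was higher at 2 h before it was low. Capitals mark the motifs found. The windows are written in the direction of the gene, so a motif on the other strand appears as its reverse complement. NRG4 (neuregulin 4, chr15:76012425-76012674, minus strand) has the TEAD letters GGAATG at -209 to -204 from the start and TATAAA at -8 to -3. PCDH9 (protocadherin 9, chr13:67230337-67230586, minus strand) has GC boxes at -100 to -95, on the other strand, and at -62 to -57, and CCAAT at -77 to -73. NFATC2 (nuclear factor of activated T cells 2, chr20:51562840-51563089, minus strand) has an NF-kB match on the other strand at -136 to -128, found by both forms searched, and TATAAA at -29 to -24. The window of its other start (chr20:51542720-51542969), not shown, has GC boxes and CAGGTG and no NF-kB match. Which start these cells use was not tested.
NRG4: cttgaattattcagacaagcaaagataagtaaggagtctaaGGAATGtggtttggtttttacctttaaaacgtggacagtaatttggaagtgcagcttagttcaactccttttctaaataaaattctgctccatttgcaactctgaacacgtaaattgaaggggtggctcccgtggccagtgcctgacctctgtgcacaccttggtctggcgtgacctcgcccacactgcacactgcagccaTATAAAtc
PCDH9: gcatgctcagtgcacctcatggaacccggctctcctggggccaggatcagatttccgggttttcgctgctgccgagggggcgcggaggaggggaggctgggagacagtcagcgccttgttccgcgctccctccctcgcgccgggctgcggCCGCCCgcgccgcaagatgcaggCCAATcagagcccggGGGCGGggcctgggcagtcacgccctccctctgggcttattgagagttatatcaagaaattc
NFATC2: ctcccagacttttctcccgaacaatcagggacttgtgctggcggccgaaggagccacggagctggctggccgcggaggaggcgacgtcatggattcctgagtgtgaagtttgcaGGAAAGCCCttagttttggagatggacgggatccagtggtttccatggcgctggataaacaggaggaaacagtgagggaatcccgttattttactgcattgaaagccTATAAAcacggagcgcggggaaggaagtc

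With the promoters of each gene averaged, the median GC content was 64.9% for the 106 genes, 64.8% for the 9534 measured genes in the table and 58.0% for all 27305 genes in it. The median ratio of observed to expected CpG was 0.696, 0.798 and 0.545 in the same order. Shares are given below for the 106 genes, the measured genes and all genes in the table, in that order. The GC box (GGGCGG) stood in 71.7%, 75% and 46.2%, CCAAT in 37.7%, 41.1% and 37.0%, and the TATA box (TATAAA) in 11.3%, 8.29% and 13.0%. The NF-kB letters GGGNNTTCC were found in 14 of the 106 genes, with shares of 13.2%, 9.38% and 7.01%. The second NF-kB form, GGNNTTTCC, which can overlap the first, gave 5.66%, 8.11% and 6.70%. The AP-1 letters TGANTCA gave 5.66%, 6.20% and 8.06%, and the cAMP response element TGACGTCA 1.89%, 3.46% and 2.03%. The E box CACGTG gave 10.4%, 11.3% and 7.73%, and the TEAD letters GGAATG 8.49%, 13.0% and 14.3%. CAGGTG, the E box bound by SNAI and ZEB repressors and searched only after the genes were known, gave 23.6%, 21.1% and 20.6%. The E2F letters TTTGGCGC were in none of the 106 genes, in 1.07% of measured genes and in 0.681% of all. A match is a description of the letters only.

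**Figure D1:**
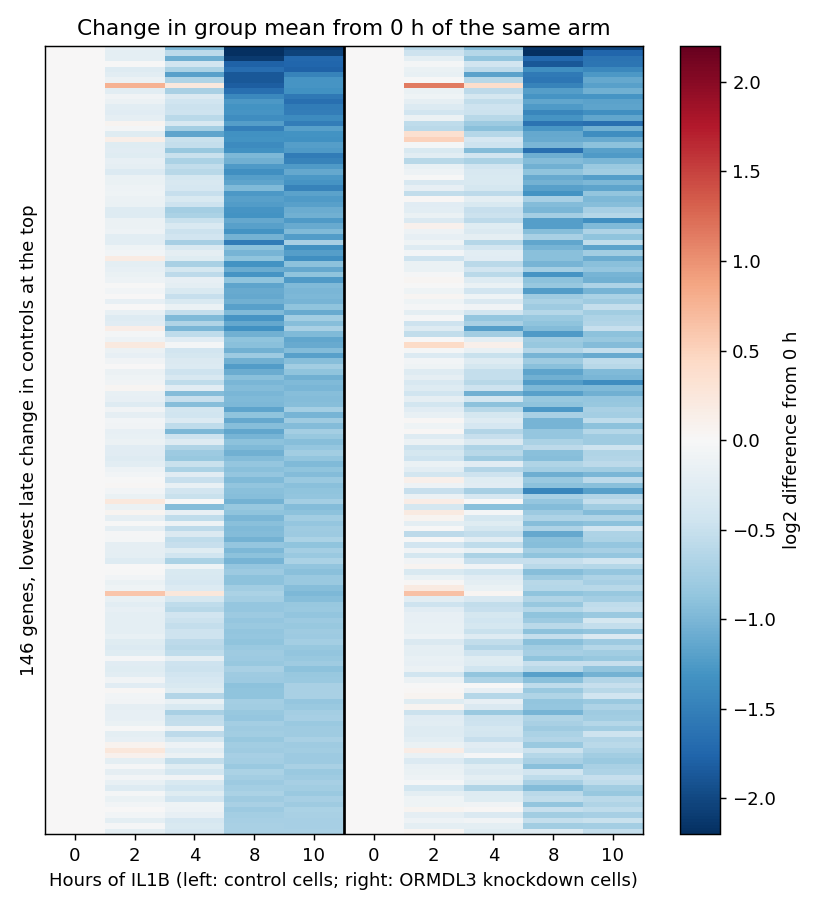
Each row is one of the 146 genes and each column a group of arrays, control on the left and ORMDL3 knockdown on the right, with the colour giving the log2 difference of the group mean from 0 h of the same arm. In the control arm, whose 0, 2, 8 and 10 h arrays chose the genes, the median was -0.15 at 2 h and -0.95 at 8 h. In the knockdown arm, which the thresholds did not use, it was -0.16 and -0.89.

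In the control cells the genes differed in when they came down, which is described here without a test because these arrays chose them. The median difference from 0 h was -0.15 at 2 h, -0.44 at 4 h, -0.95 at 8 h and -0.89 at 10 h. At 4 h, an hour the thresholds did not use, 20 genes were already at or under -0.7, 33 were still above -0.3 and 93 lay between. The lowest 4 h differences were those of PDE3A, which breaks down cyclic nucleotides (-1.20), SPATA31G1 (-1.16) and DEPTOR, an inhibitor of the kinase mTOR (-1.08). The highest were those of MTNR1A, a melatonin receptor (0.24), NFATC2 (0.23) and the lipid flippase ATP8B1 (-0.01). At 2 h, 20 genes lay above 0. Between the late hours there was no common direction, with 65 genes lower at 10 h than at 8 h and the others higher.

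Close to the thresholds the choice rests on small differences. At 2 h, CORO2A and CACNG6 were just inside at -0.30, and DPYSL5 and LIMA1 just outside at -0.31. At 8 h, GATM and PGAP2 were inside at -0.70, while ADORA1 and PMM1 were outside at -0.69. At 10 h, LINC00910 and KIF9 were inside at -0.70, and SDC1 and SMARCA2 outside at -0.69.

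The ORMDL3 knockdown arm gave a test on arrays that the thresholds did not use. ORMDL3 itself read 6.78 to 7.77 on the 19 control arrays and 5.00 to 5.57 on the 19 knockdown arrays, without overlap. At 8 h all 146 genes had fallen from 0 h in the knockdown cells (limma, adjusted p under 0.05), where 17.7% of the 14488 probe sets were called lower and 11.2% higher. The median change was -0.89 over the genes and -0.04 over all probe sets, and single genes ranged from -2.21 to -0.28. At 10 h all 146 values were below 0 and 145 genes were called lower, beside 13.8% of all probe sets, with a median of -0.77. The gene not called was MRAP2, a melanocortin receptor accessory protein, at -0.39 ± 0.19 (SE; limma, adjusted p = 0.144).

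The late groups and the 0 h group rarely overlapped in the knockdown arm. For 145 of the 146 genes every 8 h array lay below every 0 h array, which held for 19.7% of all probe sets, and the exception was HOGA1, a mitochondrial enzyme of hydroxyproline breakdown. At 10 h this held for 140 genes and 15.6% of all probe sets. The 6 exceptions were DNAAF11, AHNAK, PLEC, LINC02893, MRAP2 and CORO2A. The mean of 8 h and 10 h, called the late change below, was lower than 0 h for all 146 genes, with 18.2% of probe sets called lower and a median of -0.82 against -0.03 over all probe sets. It ranged from -2.08 for NRG4 to -0.40 for BCAT2, and 39 genes were at or under 50% of their 0 h level. The comparisons with 0 h at each hour share the same 3 arrays at 0 h.

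Most of the fall in the knockdown cells came after 2 h. At 2 h, 28 genes had fallen, which is 19.2% of the 146 beside 13.8% of all probe sets, and the median change was -0.16. This count was 43 with the replicate number as a block, 12 without knockdown 0 h replicate 1 and 18 without knockdown 2 h replicate 2. Another 3 genes had risen at 2 h, beside 9.57% of all probe sets: NFATC2, GRHL3 and MTNR1A. At 4 h, 98 genes had fallen, beside 17.5% of all probe sets, 1 had risen (NFATC2, beside 12.6%), and the median was -0.41. From 4 h to 8 h, 109 of the 146 genes, which can include those already lower at 4 h, were called lower and none higher, where 12.7% and 9.80% of all probe sets were called, with a median of -0.51. From 2 h to the late mean 141 genes fell, beside 17.9% of probe sets, with a median of -0.66. The other 5 were LINC02893, DNAAF11, CDNF, SLFN13 and CYP2U1, and the smallest value was that of CYP2U1, -0.04 ± 0.10 (SE; limma, adjusted p = 0.779).

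**Figure D2:**
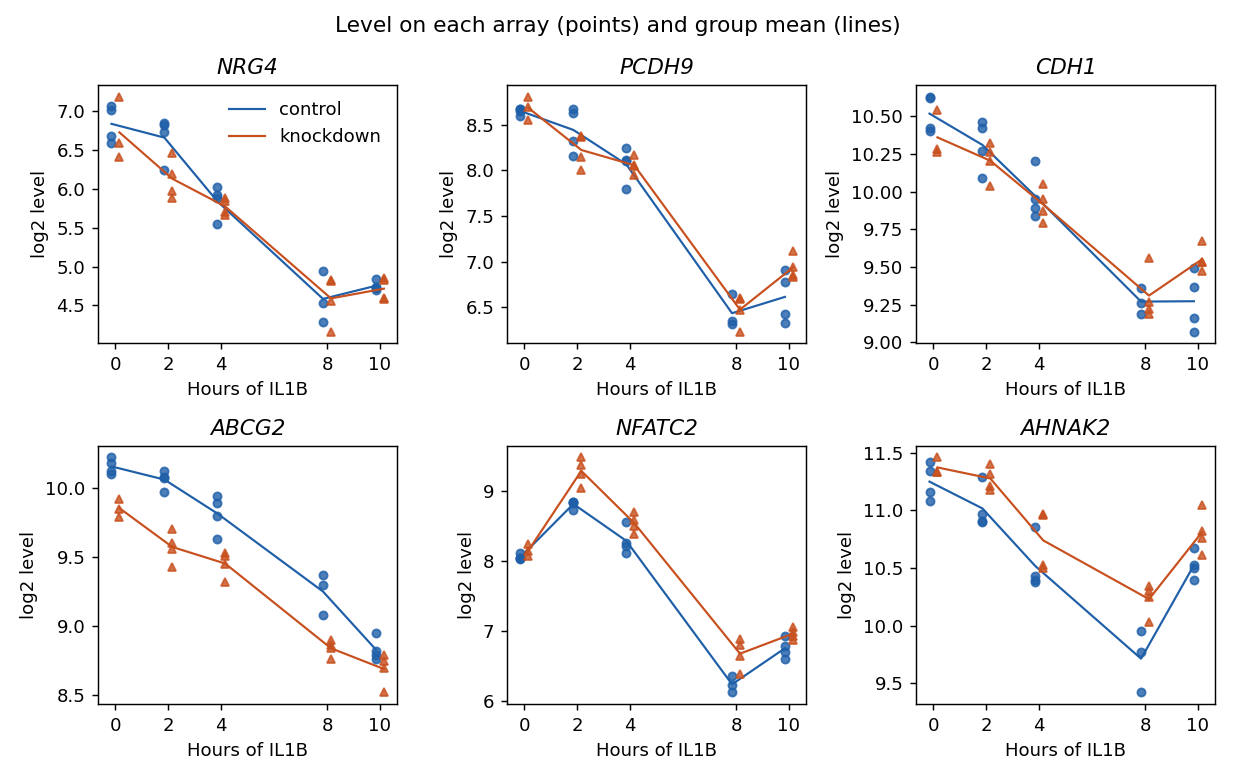
Log2 level of 6 genes on each array against hours of IL1B, with circles for control and triangles for knockdown and lines through the group means. NRG4, PCDH9 and CDH1 fall without overlap between 0 h and the late hours in the knockdown arm, NFATC2 is highest at 2 h in both arms, and AHNAK2 stands higher at 10 h than at 8 h.

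For the account of single genes, 97 of the 146 were put into 8 groups by what they do, after the genes were known. The 18 ligands, receptors and matrix proteins had a median late change of -0.78 in the knockdown cells. Of the 18, 4 had fallen at 2 h, beside 13.8% of all probe sets, and 12 at 4 h, beside 17.5%. NRG4, a growth factor that signals through the receptor ERBB4 (probe set 7990555), read 7.19, 6.59 and 6.41 on the knockdown arrays at 0 h. It read 6.19, 5.89, 6.47 and 5.98 at 2 h, and 5.89, 5.70, 5.84 and 5.67 at 4 h. At 8 h it read 4.16, 4.81, 4.56 and 4.83, and at 10 h 4.83, 4.60, 4.85 and 4.58. All 8 late arrays lay below every earlier one, while one array at 2 h overlapped 0 h. The late change was -2.08 ± 0.16 (SE; limma, adjusted p = 1.66e-12), which left 23.7% of the 0 h level. These late levels are dim, below the lower quartile of all values, which was 6.52 to 6.70 over the arrays. The control arrays ran from 6.59 to 7.07 at 0 h, 4.28 to 4.94 at 8 h and 4.70 to 4.84 at 10 h, so the late ranges of the arms overlapped.

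ERBB3, a neuregulin receptor with little kinase activity of its own, read 6.51, 6.41 and 5.93 at 0 h in the knockdown cells, 5.31, 5.56, 5.36 and 5.16 at 8 h, then 5.88, 5.58, 5.51 and 5.56 at 10 h. Every late array was below every 0 h array, by a narrow margin at 10 h. Its late change was -0.79 ± 0.15 (SE; limma, adjusted p = 8.11e-05). ANGPT1, the ligand that activates the endothelial receptor TIE2, fell to 40.7% of its 0 h level, and VCAN, the matrix proteoglycan versican, to 42.9%. AGTR1, the angiotensin II type 1 receptor, fell to 46.1% and had already fallen at 2 h by 0.45 on the log2 scale. The smallest late changes of the group were those of CDNF, a neurotrophic factor, and THBS1, the matrix glycoprotein thrombospondin 1, both at -0.58. THBS1 was not called at 2 h, with 0.17 in the knockdown cells and 0.25 in controls. MTNR1A rose at 2 h by 0.64 ± 0.20 (SE; limma, adjusted p = 0.0201) and then fell, with a late change of -0.86.

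The 13 genes of cell adhesion and epithelial structure had a median late change of -0.81. At 2 h, 2 had fallen and 1 had risen, near the shares of all probe sets (13.8% and 9.57%). PCDH9, a protocadherin (probe set 7971922), read 8.70, 8.81 and 8.55 at 0 h in the knockdown cells and 8.15, 8.37, 8.38 and 8.00 at 2 h. It read 7.95, 8.17, 8.05 and 8.06 at 4 h, 6.47, 6.60, 6.23 and 6.59 at 8 h, then 6.94, 7.12, 6.83 and 6.85 at 10 h. The step from 4 h to 8 h was the main one, at -1.58 ± 0.12 (SE; limma, adjusted p = 3.40e-12), and the 8 h and 10 h arrays did not overlap. CDH1, E-cadherin, the adhesion protein of epithelial junctions (probe set 7996837), read 10.26, 10.54 and 10.28 at 0 h. At 8 h it read 9.19, 9.56, 9.27 and 9.22, and at 10 h 9.53, 9.53, 9.47 and 9.67. All late arrays lay well below all 0 h arrays, and the late change of -0.93 ± 0.10 (SE; limma, adjusted p = 1.84e-09) left 52.5% of the 0 h level.

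Several proteins of the desmosome and its filament anchors were in the same group. The desmosomal cadherin DSC3 had a late change of -0.98 and the plakophilins PKP2 and PKP3 had -0.85 and -0.42. The plakin linkers PPL and PLEC had -0.78 and -0.56. PKP2 had reached -0.90 at 4 h and stood at -0.88 at 8 h, whereas DSC3 was at -0.45 and -0.99. LLGL2, a protein of the basolateral membrane, fell by 0.95. GRHL3, a transcription factor of epithelial barrier formation, followed another course. It read 7.46, 7.20 and 6.90 at 0 h, 7.98, 7.39, 7.84 and 7.54 at 2 h, then 6.22, 5.92, 6.13 and 6.01 at 8 h in the knockdown cells. The 2 h range overlapped that at 0 h, with 1 of 4 arrays below the highest of them, and the rise was 0.50 ± 0.14 (SE; limma, adjusted p = 0.00804). By 8 h every array was below every 0 h array, at -1.11 ± 0.14 (SE; limma, adjusted p = 1.74e-07).

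Of the 9 proteins of the membrane skeleton and AHNAK scaffolds, none was called at 2 h, where 13.8% of all probe sets were called lower. With so few genes this does not set the group apart. At 4 h, 5 of the 9 had fallen, beside 17.5% of all probe sets. The median late change of the 9 was -0.71. The ankyrins ANK1 and ANK3, which tie membrane proteins to the spectrin skeleton, had late changes of -1.16 and -0.71. The spectrin-binding proteins DMTN and ADD2 had -0.67 and -0.58. AHNAK2, a giant scaffold protein, read 11.33, 11.33 and 11.46 at 0 h, 10.25, 10.30, 10.03 and 10.34 at 8 h, then 10.76, 10.82, 10.61 and 11.05 at 10 h in the knockdown cells. The 10 h arrays stood between the 0 h and 8 h arrays and overlapped neither. Among the 9 actin and microtubule proteins the median late change was -0.85. TPPP3, which bundles microtubules, had -1.16, the actin nucleator COBL had -0.89 and the myosin kinase MYLK had -0.75. Of these 9 actin and microtubule proteins, 3 had fallen at 2 h, beside 13.8% of all probe sets.

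The 12 genes of calcium, phosphoinositide and cyclic nucleotide signalling had a median 2 h change of -0.02 and a median late change of -0.86. NFATC2, a transcription factor switched on by calcineurin (probe set 8067040), read 8.07, 8.24 and 8.14 at 0 h and 9.37, 9.05, 9.25 and 9.48 at 2 h in the knockdown cells. It read 8.38, 8.50, 8.70 and 8.59 at 4 h, 6.38, 6.64, 6.80 and 6.88 at 8 h, then 7.05, 6.99, 6.93 and 6.87 at 10 h. Thus all arrays at 2 h and 4 h were above, and all late arrays below, those at 0 h. The change was 1.13 ± 0.11 at 2 h (SE; limma, adjusted p = 1.72e-10) and -1.33 ± 0.09 late (SE; limma, adjusted p = 2.26e-13). The control arrays ran from 8.03 to 8.11 at 0 h, 8.73 to 8.85 at 2 h and 6.12 to 6.36 at 8 h, again without overlap.

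PDE3A, which breaks down cyclic AMP, took an earlier course, with -0.16 at 2 h, -1.18 at 4 h and -1.41 ± 0.14 late (SE; limma, adjusted p = 4.82e-10). PLCE1, a phospholipase C driven by Ras, had -0.01 at 2 h, -0.61 at 4 h and -1.36 late. PDE1C, a phosphodiesterase that responds to calmodulin, was at -1.15 late and PRKD1, a kinase activated by diacylglycerol, at -1.07. The smallest late changes of the group were -0.53 each, for PRKAR2B, a regulatory subunit of protein kinase A, and MTMR4, a phosphoinositide phosphatase.

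Among the 12 channels, pumps and membrane transporters the median late change was -0.83. At 2 h, 2 had fallen, near the 13.8% of all probe sets called lower. SCNN1A, the alpha subunit of the epithelial sodium channel, read 7.60, 7.61 and 7.59 at 0 h in the knockdown cells, 6.57, 6.81, 6.72 and 6.25 at 8 h, then 6.90, 6.65, 6.95 and 6.97 at 10 h. All late arrays were below all 0 h arrays, and the late change was -0.87 ± 0.11 (SE; limma, adjusted p = 2.30e-07). The voltage-gated sodium channel SCN9A fell to 38.0% of its 0 h level, the calcium channel CACNA1D to 46.9% and the water and glycerol channel AQP3 to 47.8%. KCNH1, a voltage-gated potassium channel, was lowest at 4 h, at -1.21, against -0.95 at 8 h and -0.50 at 10 h. ABCG2, a drug efflux pump, read 9.92, 9.85 and 9.79 at 0 h, 8.86, 8.90, 8.84 and 8.76 at 8 h, then 8.70, 8.75, 8.79 and 8.52 at 10 h. Its late arrays lay about a log2 unit below 0 h with no overlap, at -1.09 ± 0.07 (SE; limma, adjusted p = 2.03e-14).

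The 19 metabolic enzymes included 9 that had already fallen at 2 h, beside 13.8% of all probe sets. The median change of the 19 was -0.30 at 2 h, -0.49 at 4 h and -0.85 late. KHK, the kinase that commits fructose to metabolism, read 8.37, 8.52 and 8.54 at 0 h and 7.56, 8.12, 7.71 and 8.09 at 2 h in the knockdown cells. It read 7.51, 7.73, 7.29 and 7.54 at 8 h, then 7.78, 7.35, 7.17 and 7.62 at 10 h. The 2 h arrays were all below the 0 h arrays but overlapped the late ones, with a change of -0.61 ± 0.17 at 2 h (SE; limma, adjusted p = 0.00697) and -0.98 ± 0.15 late (SE; limma, adjusted p = 3.21e-06). In the control cells the 2 h difference of KHK was -0.18.

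Enzymes of fatty acid breakdown had late changes from -0.90 to -0.55. CPT1A, which admits long-chain fatty acids to mitochondria, read 9.85, 9.96 and 9.90 at 0 h, 9.32, 9.37, 9.31 and 9.25 at 8 h, then 9.59, 9.15, 9.30 and 9.48 at 10 h in the knockdown cells. Every late array was below the 0 h arrays, and the late change of -0.55 ± 0.08 (SE; limma, adjusted p = 6.33e-07) left 68.1%. EHHADH, of the peroxisomal pathway, was at -0.90, and NUDT7, a peroxisomal coenzyme A hydrolase, at -0.82. Among enzymes of amino acids, PSAT1 of serine synthesis was at -0.87, the kynurenine aminotransferase AADAT at -0.76, GATM of creatine synthesis at -0.71 and the branched-chain aminotransferase BCAT2 at -0.40. AK5, an adenylate kinase, had the lowest late value of the group, -1.65 ± 0.20 (SE; limma, adjusted p = 7.02e-08). EPHX2, the soluble epoxide hydrolase, was at -1.01, and BCO1, which cleaves beta-carotene, at -1.03.

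**Figure D3:**
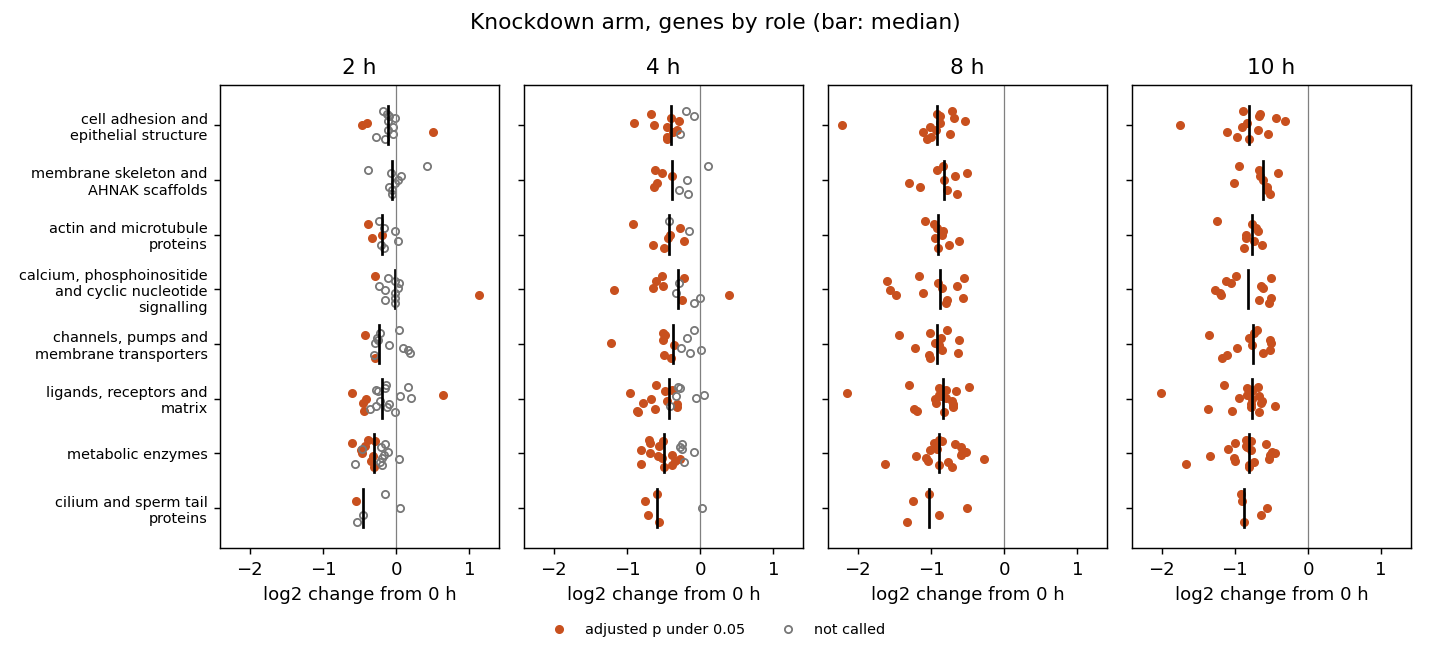
Change from 0 h in the knockdown arm for the 97 grouped genes at 2, 4, 8 and 10 h, on the log2 scale, with one point a gene, filled where the limma adjusted p was under 0.05, and a bar at each group's median. Points at 2 h lie on both sides of 0, and at 8 h and 10 h every point lies below it and is filled.

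The 5 genes of cilia and sperm tails had late changes from -1.10 for CFAP263 to -0.53 for KIF9, a kinesin. MNS1, an axonemal protein, had fallen at 2 h by 0.54. All except KIF9 had fallen at 4 h, beside 17.5% of all probe sets. The other 49 genes were not grouped. DEPTOR (probe set 8148059) read 8.26, 8.13 and 7.89 at 0 h in the knockdown cells, 7.18, 7.37, 7.42 and 6.94 at 4 h, 6.20, 6.62, 6.32 and 6.33 at 8 h, then 6.75, 6.43, 6.33 and 6.34 at 10 h. The 4 h arrays stood between the 0 h arrays and the late ones and overlapped neither, and the late change was -1.68 ± 0.11 (SE; limma, adjusted p = 8.13e-14). NCKAP5 fell to 30.0% of its 0 h level, the methyltransferase-like TMT1B to 38.4%, NOSTRIN, which binds nitric oxide synthase in endothelium, to 37.3%, and the kinase STK32B to 40.8%. NCKAP5 changed by -0.05 at 2 h, -0.42 at 4 h and -1.86 at 8 h. PTPN6, a protein tyrosine phosphatase, had one of the smallest late changes, -0.51.

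Between 8 h and 10 h few of the genes were called as changed in the knockdown cells. Of the 146, 105 had a higher mean at 10 h than at 8 h and 41 a lower one. The median change was 0.08, against 0.02 over all probe sets. By limma, 1 gene was called lower (0.511% of all probe sets), TRNP1 at -0.27, and 7 were called higher (1.82%). These 7 were SSBP3 at 0.31, ATP8B1 at 0.33, THSD7A and PCDH9 at 0.46, PLCE1 at 0.47, TMEM117 at 0.55 and AHNAK2 at 0.58 ± 0.12 (SE; limma, adjusted p = 0.00699). The 7 genes remained below 0 h at 10 h. The count of 8 was 15 with the replicate number as a block, 3 without knockdown 8 h replicate 1 or replicate 3, 4 without knockdown 10 h replicate 4, and 5 without knockdown 10 h replicate 1, 2 or 3.

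At 4 h, where the thresholds used neither arm, 8 genes differed between knockdown and control cells. Of these, 3 were lower in the knockdown (0.732% of all probe sets) and 5 higher (1.11%), and the median difference over the 146 genes was 0.02. KLHL4, a kelch protein, read 6.67, 6.44, 6.63 and 6.51 in the knockdown and 5.79, 6.06, 5.74 and 5.64 in controls, a difference of 0.75 ± 0.11 (SE; limma, adjusted p = 0.000169). Its arms were apart at 0 h as well, at 7.27, 7.20 and 7.40 in the knockdown against 6.13 to 6.27 in controls. CYP2U1, a fatty acid hydroxylase, read 5.43, 5.63, 5.69 and 5.55 in the knockdown and 6.58, 6.12, 6.19 and 6.05 in controls at 4 h, and differed by -0.66 ± 0.11 (SE; limma, adjusted p = 0.000721). The arms of CYP2U1 did not overlap at 4 h, nor at 0 h, where the knockdown arrays read 6.29, 6.20 and 6.26 and the controls 6.75 to 7.21. ABCG2 read 9.51, 9.45, 9.53 and 9.32 against 9.80, 9.89, 9.94 and 9.63, again without overlap, at -0.36 ± 0.07 (SE; limma, adjusted p = 0.00423). Its arms were apart at 0 h too, at 9.79 to 9.92 in the knockdown and 10.10 to 10.22 in controls. PSAT1 was also lower, at -0.41, and PIK3C2B (0.42), RBMS3 (0.43), ANKRD29 (0.49) and the potassium channel KCNN4 (0.51) were higher. At 0 h the arms of RBMS3, ANKRD29 and KCNN4 were already apart in the same direction, while those of PSAT1 and PIK3C2B overlapped. At the other hours the control arrays were those that chose the genes, so no test was made there.

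**Figure D4:**
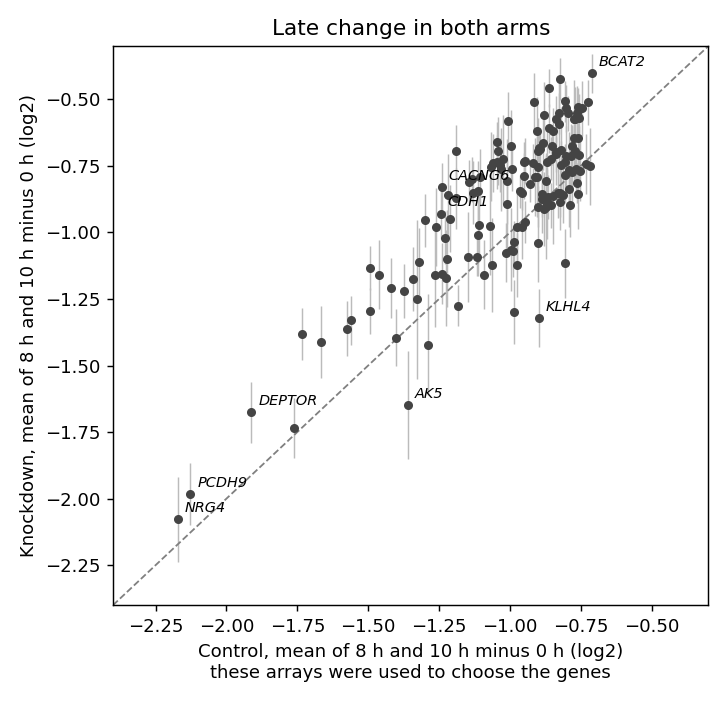
Late change (mean of 8 h and 10 h minus 0 h, log2) of the 146 genes in control cells on the horizontal axis and in knockdown cells on the vertical axis, with SE bars on the knockdown value and a dashed line of equality. All points lie below 0 on both axes, 111 of them above the line and 35 below it; the horizontal values chose the genes.

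The late change was smaller in the knockdown cells than in the controls for 111 of the 146 genes and larger for 35. The control values chose the genes, so this count carries no test. Among the 35, KLHL4 was at -0.90 in controls and -1.32 in the knockdown, ANGPT1 at -0.99 and -1.30, and AK5 at -1.36 and -1.65. Among the 111, TMT1B was at -1.73 and -1.38, and AHNAK2 at -1.13 and -0.85. When the 3 thresholds were applied to the knockdown means instead, 84 genes passed, 0.706% of all genes. Of those, 59 were among the 146, which is 40.4% of the 146 and 70.2% of the 84. At 8 h 116 of the 146 genes were at or under -0.7 in the knockdown, at 10 h 93, and at both hours 85. At 2 h, 32 of the 146 were at or under -0.3 in the knockdown and so missed the 2 h threshold there.

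Genes of related and other pathways were taken from 16 lists written with earlier results of these data known, and the counts here leave out the 146 genes. In the knockdown cells 18.2% of all probe sets were called lower late and 12.8% higher. Of the 9 other measured ERBB ligands and receptors 2 fell and 4 rose, among the latter HBEGF at 0.70. Of 24 other genes of mTOR complexes and regulators 4 fell and 3 rose, and the stress-induced SESN3 and SESN1 were at -0.98 and -0.60. Of 14 other cadherins and protocadherins 5 fell and 2 rose, with CDH5 at 1.21. Other potassium channels gave 5 lower and 3 higher of 21, and other phosphodiesterases and kinase A genes 10 lower and 1 higher of 29. Fatty acid oxidation and peroxisome genes gave 13 lower and 2 higher of 39, and xenobiotic and steroid metabolism 18 lower and 4 higher of 39. Wnt signalling gave 14 lower and 4 higher of 39, with SFRP4 at -1.33, and guidance factors 11 lower and 11 higher of 42. In those last lists stood LGR6 and SEMA3E of the 146 genes, both at -0.77.

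The other 7 of the 16 lists held none of the 146 genes. Of these, DNA replication gave 28 lower and 0 higher of 44, nuclear receptors 10 lower and 2 higher of 24, and Notch and Hedgehog signalling 7 lower and 2 higher of 25. Circadian clock genes gave 6 lower and 4 higher of 17, and mitosis 3 lower and 3 higher of 37. Ras and Rap regulators gave 2 lower and 9 higher of 22, and TGF-beta and BMP signalling 3 lower and 12 higher of 42. Over all 16 lists, the 146 genes included, the medians ran between -0.27 for DNA replication and 0.11 for Ras and Rap regulators, against -0.03 over all probe sets.

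Most of the measured epithelial markers were lower late in the knockdown cells, but not all. Of 7 measured, 5 fell, EPCAM at -1.0, CDH1 at -0.93, KRT19 at -0.74, KRT18 at -0.36 and KRT8 at -0.32. CDH1 is itself among the 146 genes, and of the 6 other markers 4 fell and 1 rose. LAMP3, a lamellar body protein, rose by 2.61, and ABCA3 was not called at 0.08. The summed level of the 7 markers, put on the log2 scale, was 14.14 to 14.32 at 0 h in the knockdown arm. It was 13.76 to 14.06 at 8 h and 13.82 to 13.93 at 10 h. Unlogged levels were summed, so the sum mainly follows KRT8 (13.22 at 0 h) and KRT18 (12.71), with CDH1 next at 10.36. Of 3 leukocyte markers 2 rose, CD68 at 0.34 and ITGAM at 0.32, and CD14 was not called at -0.29. The sum of the 3, which mainly follows CD68 (10.14 at 0 h), went from 10.46 to 10.53 at 0 h to 10.61 to 10.85 at 8 h. The fibroblast marker COL1A1 was not called at 0.06, with 6.60 to 7.02 at 0 h and 6.64 to 6.79 at 8 h, and the endothelial marker CDH5 went from 5.01 to 5.30 to 6.28 to 6.64. The part of these markers in the late falls was not tested.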

How the data were processed

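RNA of A549 cells was measured on 38 Affymetrix arrays. The values are log2 levels of 14488 probe sets, deposited by the authors; RMA, Affymetrix Power Tools, hg19 and limma 3.22.7 stand in the submitters' processing notes, without roles. As usually run, RMA subtracts background, makes the arrays' distributions alike and summarises probes, so levels near the bottom of the range understate changes. The basis on which probe sets entered the table is not given in sources used here. Array medians lay between 8.02 and 8.19, and precision is limited by the number of arrays. Between arrays of a group the SD of the difference over probe sets was 0.171 to 0.304. The platform annotation gave 12132 probe sets 1 symbol, 628 several and 1728 none, and 12121 of the 12132 matched current records by Entrez identifier.

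Groups and replicate numbers came from the labels. With limma 3.58.1 in R 4.3.3, 1 mean was fitted for each of the 10 groups on all 38 arrays, and p-values were adjusted by Benjamini-Hochberg over all probe sets and called under 0.05. The code was tested on simulated data. Contrasts used knockdown arrays, or both arms at 4 h, since control arrays at 0, 2, 8 and 10 h chose the genes. The contrasts between 4 h and 8 h and between 8 h and 10 h, and the count of genes higher at 2 h, were added after the data were seen. The genes and lists were chosen with earlier results of these data known. Named genes were those with the lowest changes in either arm, the highest late changes in the knockdown, the clearest differences between arms at 4 h, the extremes at 4 h in controls, the neighbours of each threshold and those in a list, with up to 3 called genes a list; other genes named by role or course were chosen after their values were seen. Deviations of same-numbered knockdown arrays correlated at 0.13 to 0.54 in all 12 pairs with 0 h, and at 0.13 to 0.30 between 8 h and 10 h. They correlated at -0.04 to 0.37 between 2 h and the late hours, and at -0.01 to 0.45 between 4 h and 8 h. The main fit did not use the replicate numbers. Alternatives were the block, other normalizations, filters, weights, thresholds and leaving out arrays. Collections at 6 h and 24 h, named in the labels' protocols, are not analysed here.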

Additional observations from a re-analysis of the deposited data

Results flagged for a closer look

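Levels of 12 of the genes, and the median over all 146, were examined in the groups of 4 arrays for a single array far from the others (Dixon's test at the 95% level), 104 groups of values in all, of which chance would mark about 5%. The test marked 3. NFATC2 read 8.73 on control 2 h replicate 1, next to 8.83 on the nearest array of its group. AHNAK2 read 10.86 on control 4 h replicate 4, next to 10.43. KLHL4 read 7.05 on knockdown 2 h replicate 4, next to 6.73.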

How the results depend on the processing

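The late change in the knockdown cells of 43 named genes kept its direction and its call in all 789 checks over the alternatives. The count of genes lower at 2 h, 28, became 43 with the replicate number as a block, 49 with array weights and 12 to 32 when 1 array was left out. The block gave 15 genes between the arms at 4 h, in place of 8, although the same-numbered arrays of the arms did not all correlate (-0.12 to 0.58), and 15 between 8 h and 10 h; the latter count was 4 from knockdown arrays alone. The block kept all calls made without it. Leaving out 1 array gave 79 to 93 lower genes at 4 h, 143 to 146 at 8 h, 139 to 145 at 10 h, 137 to 143 from 2 h to the late mean, 95 to 106 from 4 h to 8 h, 2 to 3 higher at 2 h, 6 to 9 between the arms and 3 to 8 between 8 h and 10 h. Without probe sets under the median level only 52 of the genes were left: all 52 were lower at 8 h, at 10 h and from 2 h to the late mean, 42 at 4 h and from 4 h to 8 h, and 10 at 2 h, with 0 higher at 2 h and 3 between the arms. The choice itself gave 239 genes with a late threshold of -0.6, 87 with -0.8, 129 from group medians and 134 to 150 when 1 control array was left out. Dim probe sets and groups of 3 or 4 arrays limit what small changes could be called.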
